A study of Mus musculus with 4 samples.

Results

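The report covers 9 transcription factors of the myeloid lineage, Maf, Spi1, Irf8, Irf4, Cebpb, Klf4, Klf2, Bhlhe40 and Runx3, out of 19491 genes listed in any of the deposited matrices. They were chosen by name, and all 9 are listed in the matrices. CD45+ cells, which are cells of the blood lineage, were sorted from the dura mater, the outer membrane around the brain, and from the brain of adult male C57BL/6J mice, 8 to 10 weeks old, and sequenced as single cells. The mice had received a photothrombotic injury, in which a light-activated dye closes vessels of the meninges and the brain surface, or a sham operation. The tissue was taken on day 3, which gives sham (S3) and injured (D3) animals. There are 4 libraries, brain S3, dura mater S3, brain D3 and dura mater D3, with 1 library per condition. The number of mice in each library is not given in the text used here, the labels call the controls CT, and the source labels of the brain libraries read CD45-+ where their titles read CD45pos. All groups share the strain, the sort and an enzymatic digestion of the tissue for 30 min.

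These factors are known as the switches that set and keep the identities of myeloid cells. Spi1 (PU.1) opens the myeloid programme in progenitors, Irf8 directs cells to monocytes and to type 1 conventional and plasmacytoid dendritic cells and keeps granulocyte fate in check, Irf4 serves type 2 conventional dendritic cells, and Cebpb serves granulocytes, monocytes and inflammatory responses. Maf and Klf4 belong to resident macrophages and monocytes, Klf2 keeps leukocytes quiescent, Bhlhe40 is a repressor tied to cytokine output and proliferation, and Runx3 acts downstream of transforming growth factor beta in dendritic cells and lymphocytes.

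Filtering for genes per cell, mitochondrial share and doublets left 3618, 3439, 4438 and 2603 cells in brain S3, dura mater S3, brain D3 and dura mater D3, with 37590286 to 72390201 UMIs per library and a median of 8252 to 14269.5 UMIs per cell. Libraries shared between 3 and 11 cell barcodes per pair. Cells were clustered and clusters were named by lists of markers, so every class below is a cluster that carries the markers of that cell type (microglia-like and so on) and not a sorted population. In nearly all classes and libraries all listed markers of the class were higher than in the other cells, with 6 of 8 for the Siglecf+ neutrophil-like class and 10 of 12 for cDC2-like cells of the S3 libraries as the lowest. The markers of the Siglecf+ class summed to 5059 CPM in it, below the 5394 CPM in the other cells of brain D3. Some classes come almost from 1 library. The infiltrating-like macrophages held 1380 cells of brain D3, 22 of dura mater D3 and 6 of brain S3, the Siglecf+ neutrophil-like class held 139 cells of brain D3 and at most 9 of any other library, and microglia-like cells were 434 in brain S3, 631 in brain D3 and at most 6 in the dura mater. For these classes the class and the library cannot be told apart.

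A level below is the number of UMIs of a gene per 1000000 UMIs of the class in that library (CPM), with an exact Poisson 95% interval. A difference is the log2 ratio of such levels with its exact 95% interval. A gene is called past 2-fold where the log2 ratio is at least 1 in size, the interval does not reach 0 and both groups together hold at least 20 UMIs. All intervals cover counting error only, not the spread between mice, and with 1 library per condition the differences between S3 and D3 and between tissues have no test. Differences between classes were also tested over the libraries that hold both classes, with limma on the summed UMIs and the library as a block, a test added after the levels had been seen. Its p, adjusted over all genes tested, sets a class difference against its spread over libraries. That spread is drawn towards the spread of other genes, most strongly where few libraries hold both classes. The libraries differ in tissue and day and are not replicates of 1 condition. The classes were clustered from the same cells, though without the 9 factors. The limma log2 ratios have a standard error (SE), and the call is an adjusted p under 0.05. Beside each first count of factors past 2-fold stands the percentage of all genes with enough UMIs that passed the same limit in that comparison. As a reference for free RNA in the droplets, a class taken to hold little of a factor was set beside it. T cells served for Spi1, Irf8 and Klf4, B cells for Maf and Bhlhe40, both for Cebpb, mature neutrophil-like cells for Irf4, and B cells with mature neutrophil-like cells for Runx3. Median UMIs per cell were 5961 to 7810 in T, 3474 to 5427.5 in B and 3896 to 7468 in mature neutrophil-like cells. The reference is not a measure of free RNA, since other classes can lie below it, such as the B cell precursors of the dura mater with 10.0 and 11.9 CPM of Bhlhe40 and 25.0 and 25.9 CPM of Cebpb. No reference was set for Klf2, whose lowest levels were 21.2 CPM in gamma-delta T-like cells of dura mater S3 and 36.8 CPM in those of dura mater D3.

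Part of the Lyve1+ macrophage-like class carried RNA of neutrophils. The 12 mature neutrophil markers summed to 40203, 16587, 19276 and 24935 CPM in the Lyve1+ macrophages of brain S3, dura mater S3, brain D3 and dura mater D3, and none of them was at 0. In 178 of 1279 Lyve1+ macrophages (13.9%) these markers took more than 1% of the UMIs of the cell, while the median cell had 0.0394% to 0.0719%. Among Lyve1- macrophages 0.442% to 1.84% of cells passed this limit. Results on macrophages are therefore given with all cells, and the log2 ratios were repeated without such cells, a choice made after these levels were seen. Of 197 log2 ratios of the 9 factors past 2-fold, none was lost without these cells and 6 were gained among 706. Cells of the neutrophil and granulocyte precursor classes were all kept in this repeat, so ratios that involve only those classes could not change. The limma tests described above were run with all cells and were not repeated.

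The genes lie on 5 chromosomes of GRCm38, the build the authors mapped to. Maf spans chr8:115682942-115707794 on the minus strand, Irf8 chr8:120736358-120756694 and Klf2 chr8:72319033-72321656 on the plus strand. Spi1 is at chr2:91082390-91115756 and Cebpb at chr2:167688915-167690418, both on the plus strand. Klf4 is at chr4:55527143-55532466 on the minus strand and Runx3 at chr4:135120652-135177990 on the plus strand. Irf4 is at chr13:30749226-30766976 and Bhlhe40 at chr6:108660629-108666925, both on the plus strand. All are protein-coding genes, and the 3' kit reads mainly the end of each transcript.

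RefSeq promoter windows (GRCm38.p6), read over the 250 bases before the start, were found for 6 of the 9 genes, Cebpb, Klf4, Runx3, Klf2, Irf8 and Irf4. The 8 windows of these genes were searched for 4 motifs on both strands. The MEF2 motif, CTA and TAG with any 4 bases between them, occurs in 3.20% of 32841 windows, the STAT motif TTCNNNGAA in 7.02%, the IRF motif, GAAA, any 2 bases and GAAA, in 2.98% and the ETS core GGAA, the letters bound by Spi1, in 93.5%. Klf2 was the only one of the 6 genes with the MEF2 motif and Irf8 the only one with the STAT motif, which it holds at 2 places. The IRF motif was in none of their windows. The 250 bases before the start are shown for Klf2, because its level differed between the brain and the dura mater, with the MEF2 match in capitals, and for Irf8, because its level spread so far between classes, with the STAT matches in capitals, 1 of which overlaps an ETS core.
Klf2 (chr8:72318812-72319061, plus strand): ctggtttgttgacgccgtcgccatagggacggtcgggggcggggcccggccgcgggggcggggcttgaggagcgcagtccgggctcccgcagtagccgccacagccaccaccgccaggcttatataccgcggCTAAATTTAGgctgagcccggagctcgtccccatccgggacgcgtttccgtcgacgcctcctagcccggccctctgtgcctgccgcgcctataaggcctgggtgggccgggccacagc
Irf8 (chr8:120736108-120736357, plus strand): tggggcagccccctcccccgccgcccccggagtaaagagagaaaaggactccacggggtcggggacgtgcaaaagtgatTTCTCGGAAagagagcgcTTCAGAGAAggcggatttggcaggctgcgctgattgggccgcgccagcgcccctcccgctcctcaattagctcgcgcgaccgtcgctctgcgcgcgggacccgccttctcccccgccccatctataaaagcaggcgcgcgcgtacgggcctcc
The start is that of RefSeq, which for Klf2 lies inside the gene span given above from the GENCODE annotation, so the end of its window falls within that span. The Klf2 match begins 118 bases before the start, and the Irf8 matches begin 171 and 153 bases before it. A match is a run of letters, not a measured site of binding.

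Spi1 was read in every myeloid class well above T cells. Its level was 480 CPM in microglia-like cells of brain S3 and 451 CPM in those of brain D3. In Lyve1+ macrophages it was 489, 413, 519 and 452 CPM (brain S3, dura mater S3, brain D3, dura mater D3, the order used throughout) and in Lyve1- macrophages 410, 423, 498 and 460 CPM. Both kinds of border macrophages thus overlapped. The infiltrating-like macrophages of brain D3 were at 403 CPM. The high end was held by Ly6C low monocyte-like cells at 968, 766, 888 and 912 CPM and by mature neutrophil-like cells at 911, 667, 1009 and 799 CPM. The low end was held by plasmacytoid dendritic cell-like (pDC-like) cells at 185, 168, 351 and 153 CPM, still above T cells at 4.48 to 30.5 CPM.

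Irf8 separated the classes further than Spi1. It was at 2617, 2558, 2362 and 2240 CPM in pDC-like cells and at 1436, 1375, 1399 and 1200 CPM in type 1 conventional dendritic cell-like (cDC1-like) cells, while type 2 (cDC2-like) cells held only 40.7, 38.4, 99.0 and 49.4 CPM. No library of 1 of these classes overlapped another class. Microglia-like cells had 497 CPM at S3 and 455 CPM at D3, above every other macrophage and monocyte class. Both Lyve1+ and Lyve1- macrophages lay between 207 and 266 CPM, infiltrating-like macrophages of brain D3 at 272 CPM, and Ly6C hi monocyte-like cells between 158 and 206 CPM. In mature neutrophil-like cells Irf8 was 11.4, 8.79, 18.0 and 8.29 CPM, below T cells of the same libraries (15.0, 33.2, 28.3 and 22.9 CPM). With each cell thinned to 2000 UMIs 0.468% to 3.07% of mature neutrophil-like cells held a UMI against 2.58% to 5.56% of T cells, so no level above this reference was detected in neutrophils. Outside the myeloid classes Irf8 was read in B cells (247 to 417 CPM) and in NK/ILC1-like cells (519 to 1011 CPM).

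Irf4 was sparse, and among myeloid classes it was highest in cDC2-like and pDC-like cells. Levels were 40.7, 34.0, 24.5 and 41.4 CPM in cDC2-like cells, from 99, 110, 139 and 99 UMIs, and 26.4, 61.5, 24.3 and 40.3 CPM in pDC-like cells, from 8 to 34 UMIs. Lyve1+ macrophages had 12.6, 14.1, 16.0 and 13.2 CPM and Lyve1- macrophages 9.77, 8.74, 7.28 and 8.53 CPM. Infiltrating-like macrophages of brain D3 had 1.38 CPM (1.0 to 1.85), from 44 UMIs in 1380 cells, next to 1.13 CPM, from 1 UMI, in the mature neutrophil-like cells of that library. Mature neutrophil-like cells held at most 1 UMI in any library, and none in brain S3.

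Cebpb was the factor of neutrophils and monocytes. Mature neutrophil-like cells had 5592, 4817, 4081 and 3523 CPM and Ly6C low monocyte-like cells 4793, 3750, 4346 and 3163 CPM. Ly6C hi monocyte-like cells had 4086, 3058, 3743 and 2669 CPM. In these 3 classes the D3 library was below the S3 library of the same tissue each time. Macrophages held less, with 982 and 962 CPM in microglia-like cells, 1777, 1539, 1142 and 1126 CPM in Lyve1+ macrophages and 1840 CPM in infiltrating-like macrophages of brain D3. In the Lyve1+ macrophages that carried neutrophil markers it was 2793, 2200, 1966 and 1651 CPM, and without them the class was at 1099, 1402, 1005 and 1015 CPM. The dendritic classes were the low end, with 615, 360, 1125 and 365 CPM in cDC2-like cells, 234, 169, 324 and 203 CPM in cDC1-like cells and 74.7 CPM in migratory dendritic cell-like cells of brain D3 (23 cells). Of the reference cells, T cells had 171, 291, 305 and 293 CPM and B cells 127, 103, 176 and 106 CPM. With cells thinned to 2000 UMIs, 17.7% to 27.1% of cDC1-like, 20.2% to 33.8% of pDC-like and 14.6% of migratory cells held a Cebpb UMI, each class below the T cells of its own library (24.9% to 39.2%). Against B cells (20.9%, 17.9%, 31.7% and 16.2%), pDC-like cells were higher in the 3 libraries other than brain S3. The cDC2-like cells of the dura mater, at 33.2% and 36.5%, lay between B cells and T cells (38.3% and 39.2%). Since both references differ, whether these classes hold Cebpb beyond free RNA is not read from them.

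Maf, a factor of tissue macrophages, was highest in Lyve1+ macrophages at 1248, 1287, 1094 and 1114 CPM. Lyve1- macrophages had 370, 392, 244 and 416 CPM, with no overlap between both kinds. Microglia-like cells had 466 CPM at S3 and 244 CPM at D3. Infiltrating-like macrophages were at 144 CPM in brain D3, while the 22 cells of that class in dura mater D3 had 525 CPM. Ly6C hi monocyte-like cells, at 54.6, 32.3, 68.4 and 44.8 CPM, were above B cells (56.8, 35.0, 43.4 and 42.6 CPM) clearly in brain D3 alone. The neutrophil classes were below B cells in all libraries. Among lymphoid classes gamma-delta T-like cells held 618, 740, 530 and 717 CPM, more than any macrophage class except the Lyve1+ macrophages.

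Klf4 was shared by monocytes, macrophages and dendritic cells. Ly6C low monocyte-like cells had 662, 597, 639 and 731 CPM and Lyve1+ macrophages 605, 495, 713 and 496 CPM. Lyve1- macrophages had 308, 409, 320 and 435 CPM, microglia-like cells 348 and 217 CPM, and infiltrating-like macrophages of brain D3 344 CPM. The granulocyte precursor-like, immature and mature neutrophil-like classes lay between 4.28 and 63.0 CPM, where T cells had 38.5, 83.0, 33.9 and 83.1 CPM. In brain D3 the precursor-like, immature and mature classes (55.6, 47.5 and 63.0 CPM) exceeded T cells in CPM, but thinned to 2000 UMIs only the precursor-like class (8.78% of cells with a UMI) exceeded them (5.78%), with 4.12% of immature and 3.59% of mature cells. The immature and mature neutrophil-like cells were thus not above the T cell reference in the thinned share.

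Klf2 differed between classes and, within most classes, between tissues. In Lyve1+ macrophages it was 1847 CPM in brain S3 and 2087 CPM in brain D3, but 565 and 517 CPM in the dura mater. Mature neutrophil-like cells had 1432, 499, 1057 and 529 CPM and Ly6C hi monocyte-like cells 701, 269, 268 and 167 CPM. The tissues differed little in cDC2-like cells, with 109, 101, 105 and 97.9 CPM. Microglia-like cells had 1252 and 998 CPM and the infiltrating-like macrophages of the same brain D3 library 275 CPM.

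Among myeloid classes Bhlhe40 was highest in migratory and type 2 dendritic cells. The level was 791 CPM in migratory dendritic cell-like cells of brain D3 and 476, 354, 344 and 387 CPM in cDC2-like cells. Ly6C low monocyte-like cells had 234, 194, 187 and 169 CPM and Siglecf+ neutrophil-like cells of brain D3 281 CPM. Infiltrating-like macrophages of brain D3 were at 85.5 CPM. Microglia-like cells, at 37.6 and 27.2 CPM, and both kinds of border macrophages, at 25.5 to 51.3 CPM, were below the B cells of the same library (60.7, 105, 54.3 and 58.6 CPM). The cDC1-like cells, at 56.8 to 101 CPM, lay in the range of B cells. B cells are not the floor here, as Ly6C hi monocyte-like cells of dura mater S3 had 12.9 CPM and the mature neutrophil-like cells of that library 18.7 CPM.

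Runx3 set apart the 2 kinds of border macrophages. Lyve1- macrophages had 156, 130, 133 and 116 CPM and Lyve1+ macrophages 26.7, 36.9, 31.9 and 29.4 CPM. Microglia-like cells were like the latter, with 22.5 and 27.6 CPM, and these levels lie within those of the reference cells, 16.3 to 55.9 CPM in B cells and 7.03 to 16.9 CPM in mature neutrophil-like cells. Infiltrating-like macrophages of brain D3 had 135 CPM, Ly6C hi monocyte-like cells 106, 102, 213 and 125 CPM and cDC2-like cells 201, 136, 242 and 179 CPM.

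**Figure D1:**
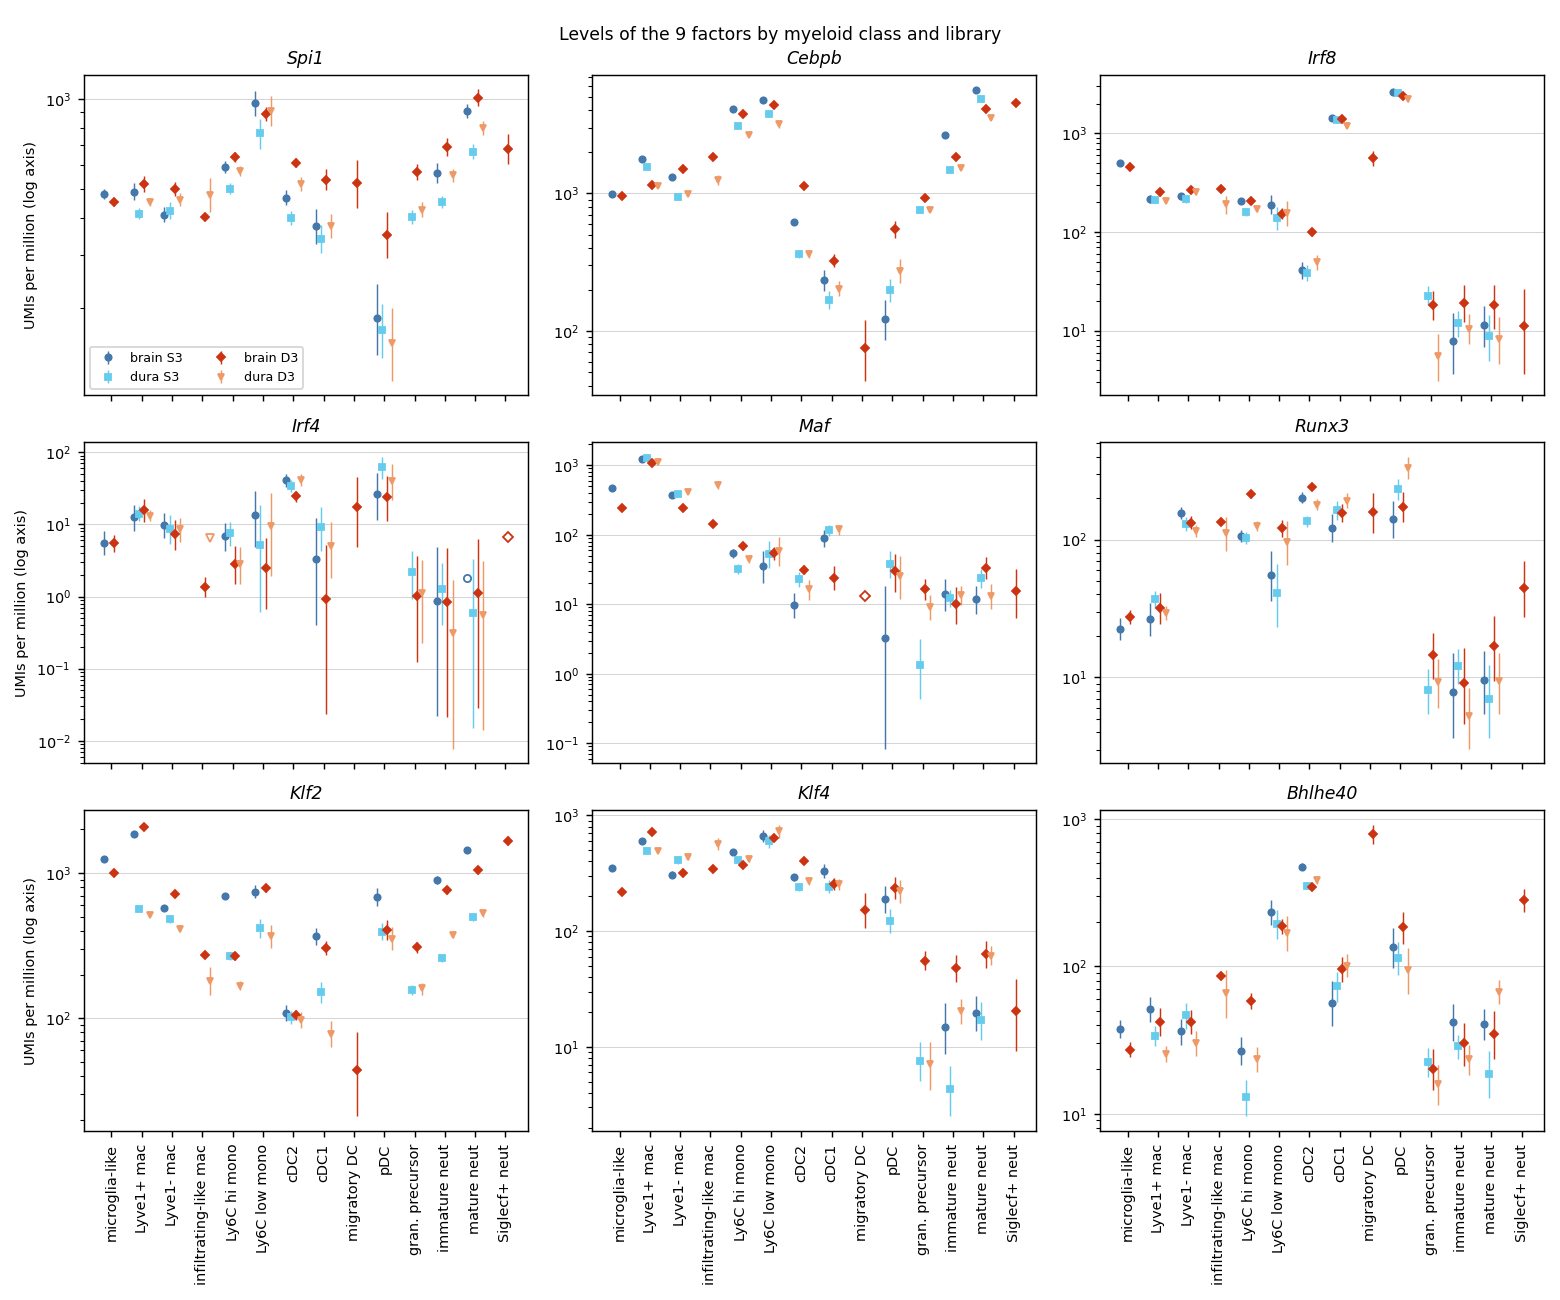
Levels of each factor in CPM (log axis) for 14 myeloid classes, 1 symbol per library with its exact Poisson 95% interval, classes with under 20 cells left out. Open symbols stand for 0 UMIs and are drawn at 3 counts. Irf8 spans the range from 2617 CPM in pDC-like cells to at most 18.0 CPM in mature neutrophil-like cells, while Spi1 stays within 153 to 1009 CPM.

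The first comparison asked how microglia differ from the macrophages at the borders of the brain, the Lyve1+ and Lyve1- classes together. In brain S3 Irf8 was higher in microglia-like cells (497 against 225 CPM, log2 ratio 1.14, 1.04 to 1.25) and Runx3 lower (22.5 against 102 CPM, -2.18, -2.48 to -1.88). These 2 of 9 factors were past 2-fold, where 19.8% of all genes were. Irf4, at 5.57 against 10.9 CPM, came to -0.98 and passed with -1.01 once cells with neutrophil markers were left out. Spi1, at 0.11, differed little. Klf2 stood at 0.18 against both kinds together. Its 1252 CPM in microglia-like cells lay between 1847 CPM in Lyve1+ and 577 CPM in Lyve1- macrophages of brain S3. Irf8 fell short of the limit without the filter on cells (0.86), with doublets kept (1.0) and centred on the median of all genes (0.98). In brain D3 4 of 9 factors passed, where 16.9% of genes did, and all were lower in microglia-like cells, Runx3 (-1.70), Maf (-1.31), Klf4 (-1.17) and Irf4 (-1.0), and Irf8 stood at 0.80. Runx3 alone passed in both libraries, where 11.3% of genes passed in both. The border group pools 2 kinds of cells that differ in these factors. Runx3 was 115 to 156 CPM over the libraries in Lyve1- macrophages. In Lyve1+ macrophages it was 26.7 to 36.9 CPM, near the 22.5 to 27.6 CPM of microglia-like cells. Maf was 1094 to 1287 CPM in Lyve1+ macrophages. In Lyve1- macrophages it was 244 to 416 CPM, which overlaps microglia-like cells (244 to 466 CPM). Over both libraries limma, with 1 residual degree of freedom and the spread pooled across genes, called 5 of 9 factors and 24.2% of genes, Runx3 (-1.92 ± 0.20 SE, adjusted p = 9.6e-12), Irf8 (0.97 ± 0.23 SE, adjusted p = 0.00066), Maf, Irf4 and Klf4. The dissociation and immediate early genes, 12 genes such as Fos and Jun that respond to tissue digestion, summed to 27690 CPM in microglia-like cells and 22953 CPM in border macrophages of brain S3, and to 14999 and 21152 CPM at D3. Their part in the result was not tested.

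Within the border macrophages, Lyve1+ cells were compared with Lyve1- cells. Maf was higher and Runx3 lower in Lyve1+ macrophages in every library. In dura mater S3, where these 2 of 9 factors passed against 14.6% of genes, the log2 ratios were 1.71 (1.61 to 1.82) and -1.82 (-2.09 to -1.54). Over the libraries Maf ranged from 1.42 to 2.17 and Runx3 from -2.54 to -1.82, and 5.65% of genes passed in the same direction in all 4. In brain S3, brain D3 and dura mater D3 18.5%, 16.4% and 12.1% of genes passed. Klf2 depended on the tissue, with log2 ratios of 1.68 and 1.54 in the brain and 0.24 and 0.32 in the dura mater. Klf4 behaved alike, with 0.97 and 1.16 in the brain and 0.28 and 0.19 in the dura mater. Over the 4 libraries limma called 5 of 9 factors and 42.7% of genes. Runx3 (-2.04 ± 0.12 SE, adjusted p = 7.6e-07) was lower in 4 of 4 libraries, and Maf (1.76 ± 0.11 SE, adjusted p = 1.1e-06), Klf2 (0.95 ± 0.22 SE, adjusted p = 0.0059), Klf4 (0.64 ± 0.15 SE, adjusted p = 0.0062) and Irf4 (0.67 ± 0.19 SE, adjusted p = 0.016) were higher in 4 of 4. The call of Irf4 was lost without dura mater S3 or without brain D3 (adjusted p up to 0.060), and the other 4 stayed when any 1 library was left out. Without the cells that carried neutrophil markers Maf and Runx3 passed in every library as before, and Klf4 in brain S3 was at 1.32.

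Infiltrating macrophages appear in the brain after injury, and the design set them against the resident cells. In brain D3 the infiltrating-like macrophages had more Bhlhe40 than border macrophages (85.5 against 42.2 CPM, log2 ratio 1.02, 0.81 to 1.24) and less Irf4 (1.38 against 11 CPM, -3.0), Klf2 (275 against 1303 CPM, -2.25) and Maf (144 against 606 CPM, -2.07). These 4 of 9 factors passed where 19.2% of genes did. The Bhlhe40 ratio was 0.30 with 2500 cells per library and 0.33 by marker gates, so its call was lost there, and it ran up to 1.65 with cells thinned to 2000 UMIs. B cells of the library, at 54.3 CPM, lay between both levels. Against the border macrophages of brain S3 the same 4 factors passed, with 1.01, -2.99, -2.01 and -2.35, among 25.1% of genes, and Bhlhe40 was again lost with 2500 cells per library (0.32). Runx3 was higher by 0.59 within brain D3 and by 0.41 against brain S3 without reaching 2-fold. Its 135 CPM in infiltrating-like macrophages lay within the 115 to 156 CPM of Lyve1- macrophages over the libraries. Lyve1+ macrophages, at 26.7 to 36.9 CPM, lowered the level of the pooled border group. Maf in that group likewise joins 1094 to 1287 CPM in Lyve1+ and 244 to 416 CPM in Lyve1- macrophages. The study named Runx3 from these libraries in this contrast, so its direction here is not independent evidence. The 12 dissociation genes summed to 8639 CPM in infiltrating-like macrophages against 21152 CPM in border macrophages of the same library, with 6 of 12 past 2-fold lower. Their part in the Klf2 ratio was not tested.

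Against the microglia-like cells of brain D3, infiltrating-like macrophages had more Runx3 (135 against 27.6 CPM, log2 ratio 2.29) and Bhlhe40 (1.65), and less Irf4 (-2.0) and Klf2 (-1.86). These 4 of 9 factors passed among 24.2% of genes. Cebpb stood just inside the limit at 0.94 and passed with 1.01 without cells carrying neutrophil markers. Against the Ly6C hi monocyte-like cells of brain D3 only 2 of 9 factors passed, where 19.1% of genes did. Maf was higher in infiltrating-like macrophages (144 against 68.4 CPM, 1.08, 0.91 to 1.25) and Cebpb lower (1840 against 3743 CPM, -1.02, -1.05 to -1.0). Irf4 came to -1.05 with an interval that reached 0 (-2.0 to 0.01). Klf2 was at 0.04 and Klf4 at -0.13. With cells thinned to 2000 UMIs neither Maf (0.94) nor Cebpb (-0.97) stayed past the limit. By marker gates Maf was at 0.76 and Cebpb at -0.94, and Cebpb also fell short with doublets kept (-0.97), at resolution 0.3 (-0.92), with 2500 cells per library (-0.92) and as a mean over cells (-0.92). The summed dissociation genes were alike here, 8639 and 8853 CPM.

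Ly6C low monocytes patrol the vessels and arise from Ly6C hi monocytes. Bhlhe40 was higher in Ly6C low monocyte-like cells in every library, with log2 ratios of 3.13, 3.91, 1.67 and 2.85, and was the only one of the 8 factors with enough UMIs in all libraries to do so, among 4.28% of genes. In dura mater S3, with 194 against 12.9 CPM, it passed together with Runx3 (-1.32, -2.14 to -0.60), which makes 2 of 9 factors where 12.6% of genes passed. Runx3 was lower in the other libraries too, with -0.93, -0.82 and -0.37. In brain S3, brain D3 and dura mater D3 14.8%, 16.5% and 12.9% of genes passed. Klf2 passed at D3 in both tissues (1.55 in the brain and 1.14 in the dura mater) but not at S3 (0.09 and 0.63). Spi1 was 0.48 to 0.71 and Cebpb 0.22 to 0.29 higher, below the limit. Over the 4 libraries limma called 6 of 8 factors and 39.2% of genes, and each call stayed when any 1 library was left out. Bhlhe40 (2.59 ± 0.26 SE, adjusted p = 8.0e-06), Spi1 (0.59 ± 0.06 SE, adjusted p = 1.1e-05), Klf4 (0.65 ± 0.07 SE, adjusted p = 2.3e-05), Cebpb and Klf2 were higher and Runx3 (-0.81 ± 0.13 SE, adjusted p = 0.00043) lower in 4 of 4 libraries. Cell numbers of the Ly6C low class were small, 61, 43, 195 and 33. A further cluster of 64, 20, 79 and 20 cells had 8 Ly6C low markers among its 10 leading genes. It stayed unnamed because mature neutrophil markers were also raised in it, and its cells are not in this comparison.

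Dendritic cells of type 1 present antigen to cytotoxic T cells and those of type 2 to helper T cells. Between cDC1-like and cDC2-like cells of brain S3 (24 and 134 cells) 6 of 9 factors passed, where 13.9% of genes did. Irf8 (log2 ratio 5.14, 4.84 to 5.46), Maf (3.16) and Klf2 (1.75) were higher in cDC1-like cells, and Irf4 (-3.61, -6.67 to -1.72, from 2 UMIs in cDC1-like cells), Bhlhe40 (-3.07) and Cebpb (-1.40) were lower. Maf (0.24) and Klf2 (0.80) fell short of the limit without the filter on cells, and Irf4 (-0.33) with cells thinned to 2000 UMIs. Irf8 passed upward and Irf4 and Bhlhe40 downward in all 4 libraries, among 4.98% of genes, with Irf8 at 3.82 to 5.16, Irf4 at -4.72 to -1.88 and Bhlhe40 at -3.07 to -1.85. In the 3 libraries other than brain S3 15.0%, 14.0% and 14.5% of genes passed. Irf4 rested on 1 to 9 UMIs in cDC1-like cells, and in brain D3 its interval ran from -10.04 to -2.22. Maf was higher in brain S3 and both dura mater libraries but stood at -0.38 in brain D3, where cDC1-like cells had 24.2 CPM, a level below that of B cells. Over the 4 libraries limma called 7 of 9 factors and 26.3% of genes. Irf8 (4.53 ± 0.20 SE, adjusted p = 8.0e-07), Bhlhe40 (-2.17 ± 0.16 SE, adjusted p = 1.4e-05), Cebpb (-1.36 ± 0.14 SE, adjusted p = 8.5e-05) and Irf4 (-2.92 ± 0.41 SE, adjusted p = 0.00057) had 1 direction in 4 of 4 libraries and stayed when any 1 library was left out. Maf (1.91 ± 0.46 SE, adjusted p = 0.012) was lost without either dura mater library (adjusted p up to 0.084), Klf2 (1.01 ± 0.26 SE, adjusted p = 0.018) without either brain library (up to 0.077) and Spi1 (-0.29 ± 0.07 SE, adjusted p = 0.011) without dura mater D3 (0.071).

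Between pDC-like and cDC2-like cells Irf8 and Klf2 were higher in every library, with Irf8 at 4.58 to 6.06 and Klf2 at 1.86 to 2.65, and these 2 of 9 factors passed among 9.54% of genes. Spi1 was lower in pDC-like cells in each library, past 2-fold in 3 of 4 (-1.34, -1.25, -0.80 and -1.77). The class held 24 to 44 cells per library, and 23.3%, 23.6%, 21.3% and 24.3% of genes passed. Over the 4 libraries limma called 6 of 9 factors and 49.3% of genes, and these calls stayed when any 1 library was left out, Irf8 (5.42 ± 0.22 SE, adjusted p = 1.4e-07) and Klf2 (2.11 ± 0.13 SE, adjusted p = 1.6e-06) higher and Bhlhe40 (-1.54), Spi1 (-1.22), Cebpb (-1.08) and Klf4 (-0.66) lower. Set against Ly6C hi monocyte-like cells, cDC2-like cells had more Irf4 (2.18 to 3.89) and Bhlhe40 (2.55 to 4.78) and less Irf8 (-2.34 to -1.05) and Cebpb (-3.09 to -1.73) in every library, among 7.14% of genes in all 4 and 20.1%, 18.7%, 14.1% and 18.1% in each. Here limma called 9 of 9 factors and 45.9% of genes, led by Cebpb (-2.58 ± 0.20 SE, adjusted p = 5.3e-05) and Bhlhe40 (3.75 ± 0.31 SE, adjusted p = 6.9e-05), while Spi1 (-0.21) and Klf4 (-0.51) were lost without any of brain S3, dura mater S3 or dura mater D3 (adjusted p up to 0.19 and 0.091). Migratory dendritic cells are those that have turned on the programme for leaving the tissue. In brain D3, the only library with at least 20 such cells (23), they had more Irf8 (558 against 99.0 CPM, log2 ratio 2.49) and Bhlhe40 (1.2) than cDC2-like cells and less Cebpb (-3.91), Klf4 (-1.39) and Klf2 (-1.26). Maf was at 0 UMIs in them and was set to a count of 3, which is 13.2 CPM, for the ratio. With Maf, 6 of 9 factors passed among 20.9% of genes.

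**Figure D2:**
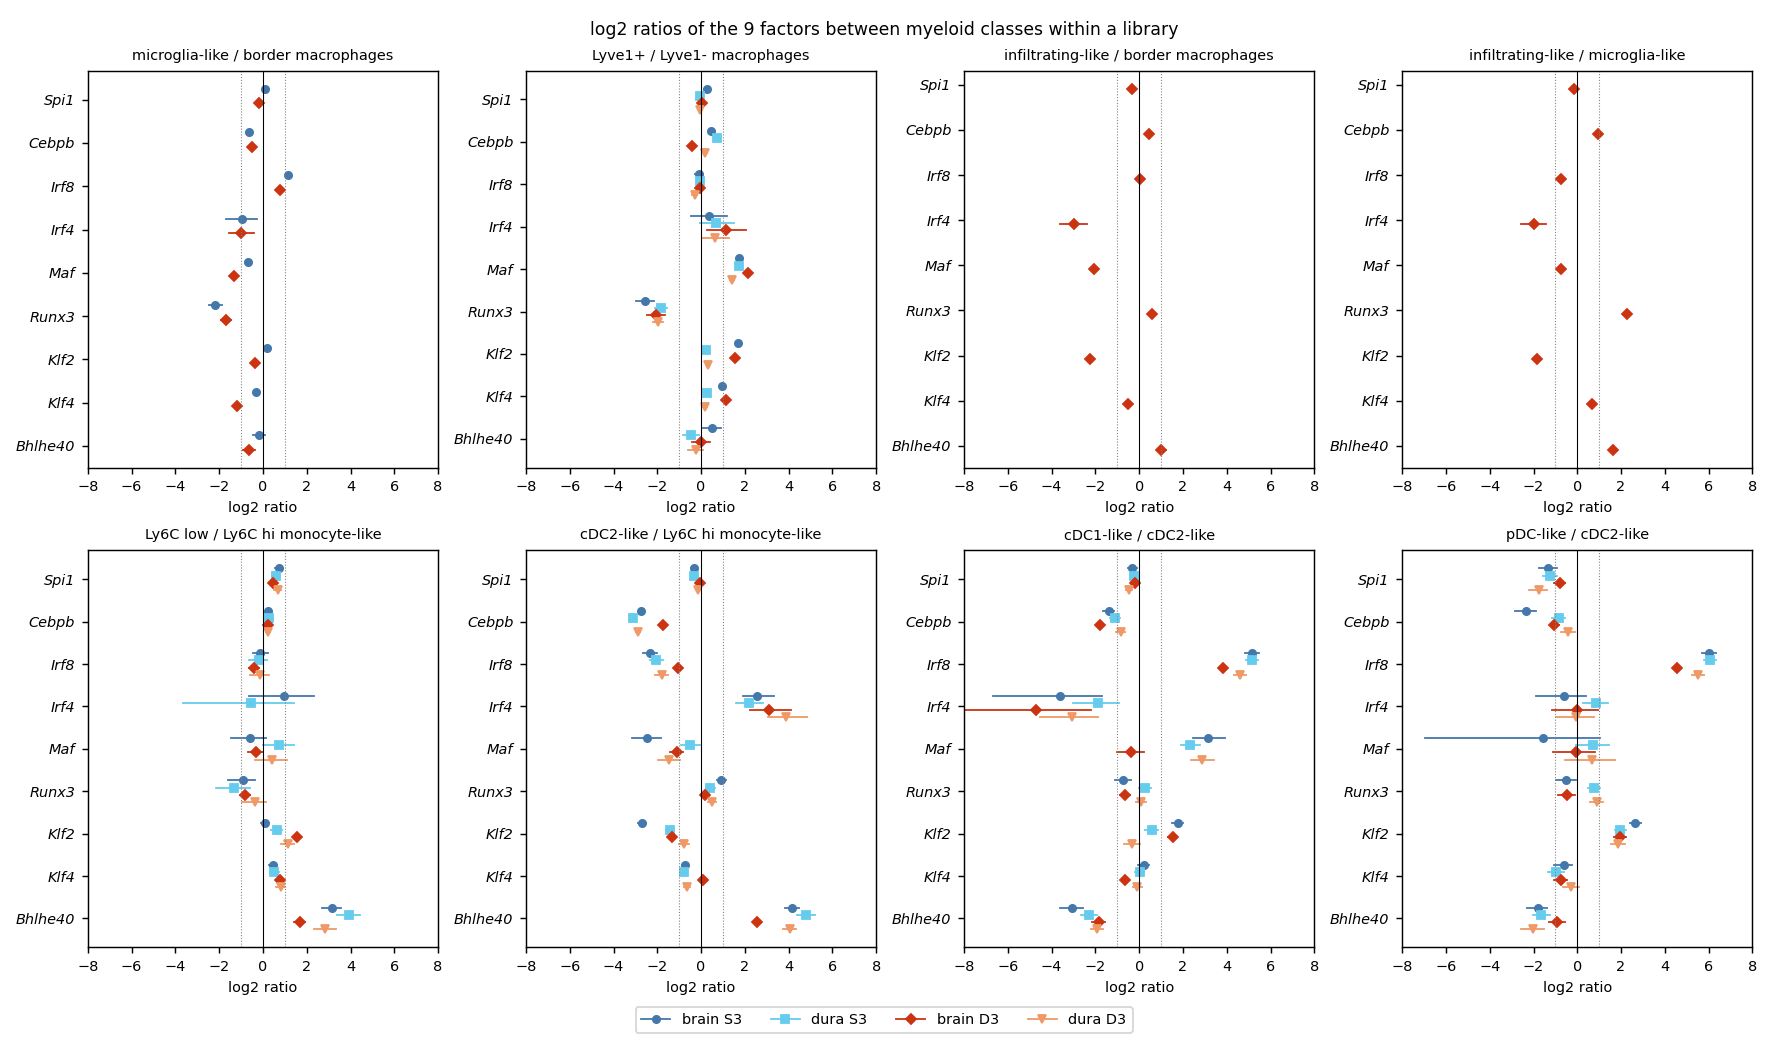
log2 ratios of the 9 factors between pairs of myeloid classes within a library, with exact 95% intervals (lines, drawn to the axis limits of -8 and 8) and dotted lines at 2-fold. Maf and Runx3 lie on opposite sides for Lyve1+ against Lyve1- macrophages in all 4 libraries, and Irf8 stands at 3.82 to 6.06 in cDC1-like and pDC-like cells against cDC2-like cells.

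Neutrophils were set against Ly6C hi monocyte-like cells. In dura mater S3 4 of 9 factors passed, all lower in mature neutrophil-like cells, Klf4 (17.0 against 416 CPM, log2 ratio -4.61), Irf8 (8.79 against 158 CPM, -4.17), Runx3 (7.03 against 102 CPM, -3.86) and Irf4 (-3.68, -9.03 to -1.08, from 1 UMI in neutrophils), which was at -0.14 with doublets kept. This comparison called 59.4% of all genes, and the median over genes was -0.69. Klf4, Irf8 and Runx3 passed in all 4 libraries, at -4.62 to -2.58, -4.37 to -3.50 and -3.86 to -3.48, among 28.1% of genes. Cebpb (0.66) and Spi1 (0.41) stood above that median, and with ratios centred on it 8 of 9 factors passed. Klf2 was 0.89 to 1.98 higher in neutrophils in the 4 libraries, past 2-fold in the 3 others, where 55.1% (brain S3), 47.7% (brain D3) and 40.9% (dura mater D3) of genes passed. Over the 4 libraries limma called 7 of 8 factors and 71.9% of genes, led by Irf8 (-4.05 ± 0.24 SE, adjusted p = 1.2e-05), Runx3 (-3.63 ± 0.23 SE, adjusted p = 1.7e-05) and Klf4 (-3.59 ± 0.37 SE, adjusted p = 0.00012). Bhlhe40 was not called (adjusted p = 0.16) except without brain D3, and Cebpb (0.41 ± 0.14 SE, adjusted p = 0.032) was lost without dura mater S3 or brain S3 (adjusted p up to 0.13).

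Along the neutrophil classes Cebpb was higher at each stage. It was 760, 931 and 761 CPM in the granulocyte precursor-like cells of dura mater S3, brain D3 and dura mater D3, 2655, 1464, 1849 and 1518 CPM in immature neutrophil-like cells, and 5592, 4817, 4081 and 3523 CPM in mature ones. The step from immature to mature was past 2-fold in every library (1.07, 1.72, 1.14 and 1.22), the only one of 8 factors to do so, among 8.91% of genes in all 4 and 22.0%, 25.4%, 19.4% and 31.5% in each. The step from precursor to immature was 0.95, 0.99 and 1.0, at the limit and not past it, and no factor passed it in all 3 libraries, among 27.2% of genes in all 3 and 43.9%, 35.7% and 41.0% in each. Spi1 was 0.53 to 0.69 higher in mature than in immature neutrophil-like cells and Klf2 0.47 to 0.94, without reaching 2-fold. From immature to mature cells limma called 4 of 8 factors and 42.7% of genes, Cebpb (1.29 ± 0.12 SE, adjusted p = 0.00017), Spi1 (0.58 ± 0.10 SE, adjusted p = 0.0020), Klf2 (0.65 ± 0.11 SE, adjusted p = 0.0028) and Klf4 (1.12 ± 0.28 SE, adjusted p = 0.013), each higher in 4 of 4 libraries, and Klf4 was lost without dura mater D3 (adjusted p = 0.052). From precursor to immature cells it called 4 of 8 factors and 69.7% of genes over 3 libraries, Cebpb (0.98 ± 0.07 SE, adjusted p = 3.7e-06), Klf2, Spi1 and Bhlhe40, and without dura mater D3 Cebpb and Klf2 alone, with adjusted p = 0.19 for Spi1 and 0.099 for Bhlhe40. The dissociation genes followed the same order, with 2052 to 3261 CPM in precursors, 4301 to 6209 CPM in immature and 8735 to 14451 CPM in mature neutrophil-like cells, and their part was not tested.

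The Siglecf+ neutrophil-like cells of brain D3 differed from the mature neutrophil-like cells of that library in Bhlhe40 (281 against 34.9 CPM, log2 ratio 3.01, 2.43 to 3.63), Runx3 (44.9 against 16.9 CPM, 1.41) and Klf4 (20.2 against 63.0 CPM, -1.64). These 3 of 8 factors passed where 44.0% of genes did. The thinned Klf4 shares of both classes, 3.23% and 3.59%, were below that of T cells (5.78%), and Runx3 rested on 20 and 15 UMIs. The Bhlhe40 level, read in 38.1% of the cells thinned to 2000 UMIs, was above B cells (8.65%) and mature neutrophil-like cells (5.19%). The class had a median of 3001 UMIs per cell. Mature neutrophil markers took a median of 2.43% of the UMIs of its cells, against 27.8% in mature neutrophil-like cells of brain D3.

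**Figure D3:**
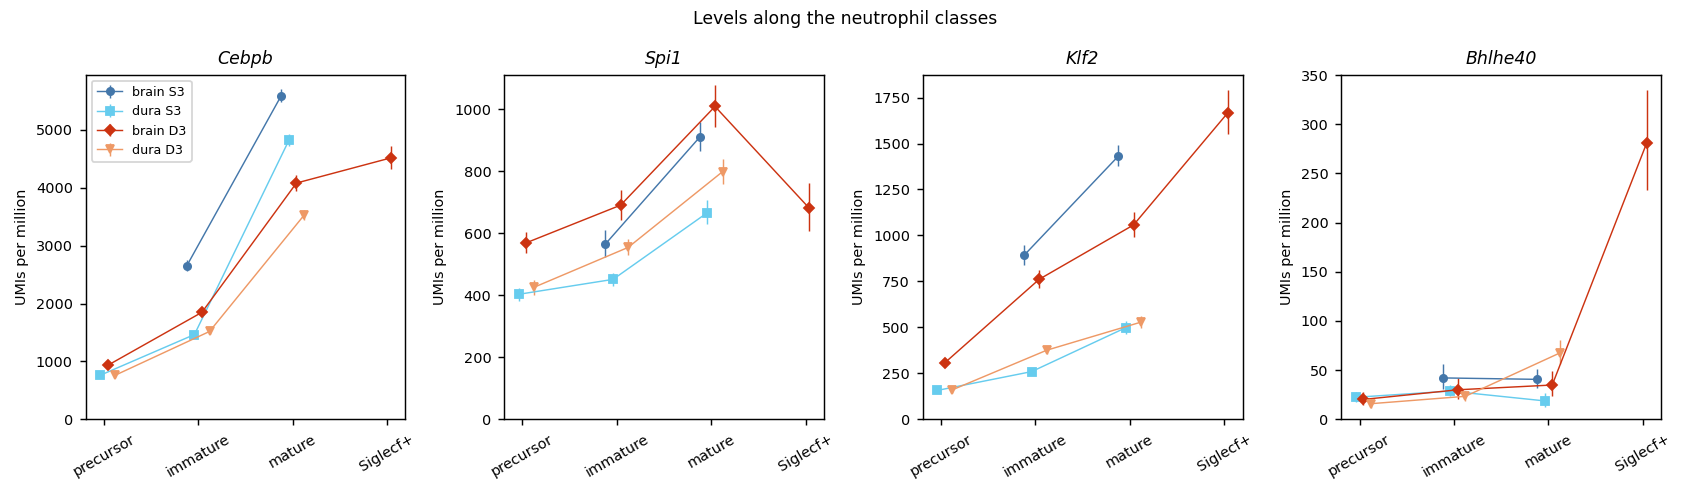
Levels of 4 factors in CPM (linear axes from 0) from granulocyte precursor-like through immature and mature to Siglecf+ neutrophil-like cells, 1 line per library with exact Poisson 95% intervals, classes with under 20 cells left out. Cebpb is higher at each stage up to 3523 to 5592 CPM in mature cells, and Bhlhe40 stands at 281 CPM in the Siglecf+ class, which only brain D3 has.

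Injury was read by setting D3 against S3 within a class and tissue. In microglia-like cells none of 9 factors passed 2-fold, where 9.74% of genes did. Maf came nearest, with 466 CPM at S3 and 244 CPM at D3 (log2 ratio -0.93, -1.01 to -0.85), followed by Klf4 (-0.68) and Bhlhe40 (-0.47), while Spi1, Irf8, Irf4 and Cebpb lay between -0.13 and -0.02. The dissociation genes went from 27690 to 14999 CPM between the same libraries, and the infiltrating macrophage markers from 1092 to 5122 CPM. Their part in these values was not tested.

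In resident border macrophages no factor passed either. In Lyve1+ macrophages of the dura mater, where 3.36% of genes passed, the largest difference was Cebpb at -0.45 (1539 to 1126 CPM). In the brain the same class had Cebpb at -0.64, and again none passed, among 4.90% of genes. Without the cells that carried neutrophil markers the Cebpb levels of this class were 1402 and 1015 CPM in the dura mater and 1099 and 1005 CPM in the brain. In Lyve1- macrophages Maf was 370 CPM at S3 and 244 CPM at D3 in the brain (-0.60), and 392 and 416 CPM in the dura mater (0.08). None of the factors passed in Lyve1- macrophages of either tissue, among 3.24% of genes in the brain and 2.02% in the dura mater.

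Ly6C hi monocyte-like cells are the blood monocytes that enter inflamed tissue. In the brain Klf2 was 701 CPM at S3 and 268 CPM at D3 (log2 ratio -1.39, -1.49 to -1.29), Irf4 6.83 and 2.85 CPM (-1.26, from 22 and 12 UMIs) and Bhlhe40 26.7 and 58.7 CPM (1.14, 0.78 to 1.51). These 3 of 9 factors passed, where 8.48% of genes did. Runx3 was 106 CPM at S3 and 213 CPM at D3, a ratio of 1.0 just short of the limit, and it reached 1.06 without cells carrying neutrophil markers. In the dura mater the directions were alike with smaller values, Klf2 at -0.68, Bhlhe40 at 0.86 and Runx3 at 0.30, and Irf4 alone passed (-1.42, from 29 and 13 UMIs), among 4.15% of genes. The count in the brain was 0 when clusters were finer (resolution 1.2), with Klf2 at -0.95 and Bhlhe40 at 0.52, or 2500 cells were drawn per library, with -0.80 and 0.75. Bhlhe40 in these monocytes was below B cells at S3 (60.7 CPM) and close to them at D3 (54.3 CPM). The dissociation genes went from 18038 to 8853 CPM in the brain and from 11953 to 8150 CPM in the dura mater, and their part in the Klf2 values was not tested.

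Among dendritic cells, cDC2-like cells of the brain had more Maf (9.87 and 31.4 CPM, log2 ratio 1.67) and Irf8 (40.7 and 99.0 CPM, 1.28, 0.97 to 1.60) at D3, which makes 2 of 9 factors where 8.38% of genes passed, and Cebpb stood at 0.87 (615 and 1125 CPM). The infiltrating macrophage markers in the same cells were 1491 CPM at S3 and 2933 CPM at D3, and the Maf levels are below B cells. The part of macrophage RNA was not tested. In the dura mater the same class had Irf8 at 0.36, Cebpb at 0.02 and no factor past 2-fold, among 3.74% of genes. In pDC-like cells of the brain Cebpb was 122 and 546 CPM (2.16, 1.65 to 2.71), the only factor past 2-fold of 7 with enough UMIs, among 5.49% of genes. Thinned shares were 20.2% and 33.8%, below T cells of the same libraries (24.9% and 35.7%) and around B cells (20.9% and 31.7%), which had 127 and 176 CPM. In cDC1-like cells of the brain Maf was lower at D3 (88.5 and 24.2 CPM, -1.87), the only factor past 2-fold of 8, among 6.84% of genes. In the dura mater neither pDC-like nor cDC1-like cells had a factor past 2-fold, among 4.72% and 4.52% of genes.

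In mature neutrophil-like cells of the brain, Klf4 (19.7 and 63.0 CPM, log2 ratio 1.68) and Maf (12 and 33.7 CPM, 1.5) passed, 2 of 8 factors where 8.16% of genes did. Maf was below B cells in both libraries, and the thinned Klf4 shares, 2.44% and 3.59%, were below those of T cells, 5.31% and 5.78%. In the dura mater Klf4 (17.0 and 61.3 CPM, 1.85) and Bhlhe40 (18.7 and 67.4 CPM, 1.85) passed among 22.8% of genes. Klf4 was below T cells, while Bhlhe40 was above B cells at D3 in CPM (58.6) and below them in thinned share (4.51% against 9.20%). Mature neutrophil markers took over 1% of the UMIs in 332 of 332 mature neutrophil-like cells of dura mater S3. In dura mater D3 they did so in 186 of 196 (94.9%), and the part of the remaining cells in these ratios was not tested. Immature neutrophil-like cells had Klf4 past 2-fold higher at D3 in both tissues, 1.67 and 2.25, with Irf8 (1.28) in the brain and Runx3 (-1.21) in the dura mater, among 7.16% and 5.31% of genes, and the Irf8, Klf4 and Runx3 shares were below those of the reference T or B cells. Cebpb of mature neutrophil-like cells was lower at D3 by the same amount in both tissues, -0.45. Cebpb of immature ones was at -0.52 in the brain and 0.05 in the dura mater. The level was lower at D3 in each of the 3 classes named above as the high end of Cebpb. Ly6C low monocyte-like cells had more Runx3 at D3 in the brain (55.7 and 121 CPM, 1.11, 0.51 to 1.78) and in the dura mater (40.8 and 96.8 CPM, 1.24, 0.33 to 2.21), the only one of 8 factors past 2-fold in either tissue, among 4.85% and 4.29% of genes. The S3 levels are close to B cells (48.2 and 51.0 CPM).

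**Figure D4:**
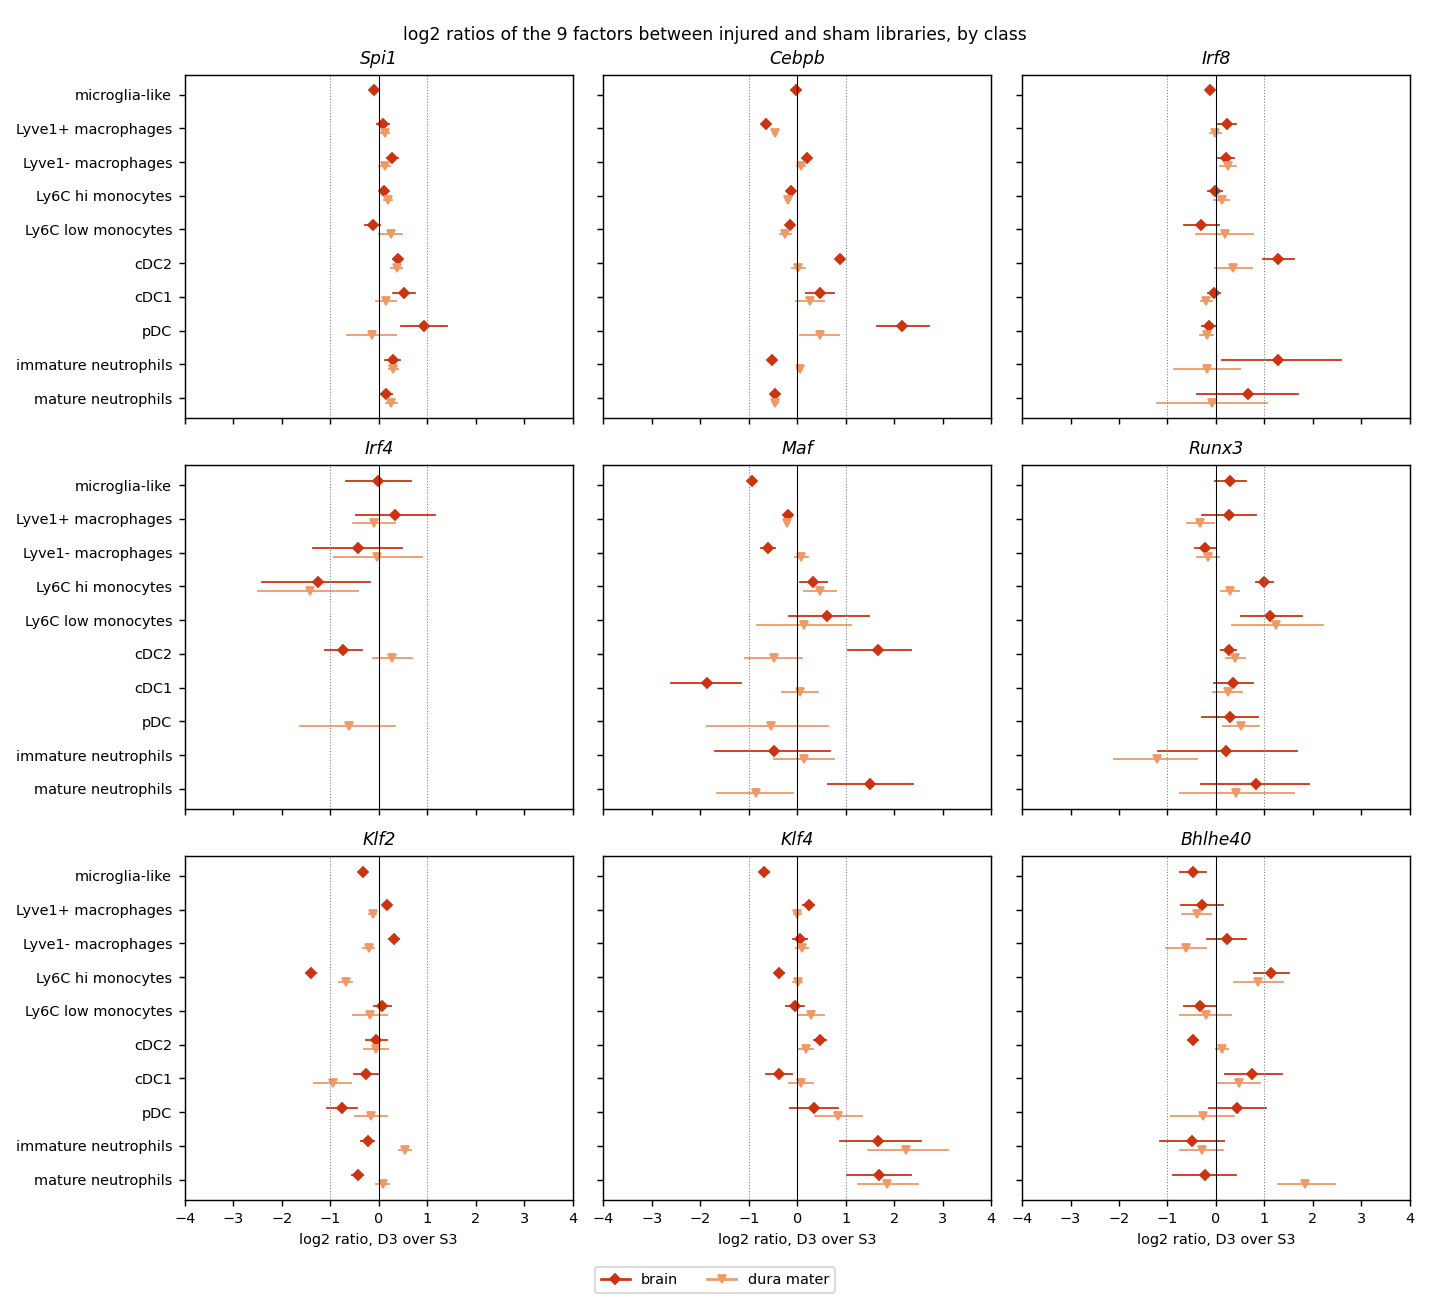
log2 ratios of D3 over S3 for the 9 factors in 10 myeloid classes of the brain (diamonds) and the dura mater (triangles), with exact 95% intervals and dotted lines at 2-fold. Most points lie within 2-fold, with Klf2 at -1.39 in brain Ly6C hi monocyte-like cells and Cebpb in pDC-like cells of the brain at 2.16 outside it.

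Klf2 was also compared between the brain and the dura mater, a comparison added after its levels had been seen. It was higher in the brain in 27 of 27 comparisons of a class on the same day, 18 of myeloid and 9 of lymphoid classes, and past 2-fold in 17. Of these 17, 9 were myeloid and 8 lymphoid, and of 3156 genes with enough UMIs in all comparisons 0.158% passed as often, which are Klf2, Rhob, Ccl3, Hspa1a and Hspa1b. The log2 ratios had a median of 1.38 and ran from 0.10 to 2.68. In Lyve1+ macrophages they were 1.71 at S3 and 2.01 at D3, in mature neutrophil-like cells 1.52 and 1.0, and in T cells 2.26 and 1.62. The cDC2-like cells, at 0.10 and 0.11, were at the low end, with intervals that reached 0 (-0.14 to 0.34 and -0.11 to 0.33). So did the interval of pDC-like cells at D3 (0.20, -0.15 to 0.56). All 27 comparisons rest on the S3 pair and the D3 pair of libraries and are not independent. The share of all genes higher in every comparison was not computed. The dissociation genes were higher in the brain in 20 of the 27 comparisons, and 2 of the 4 other genes that passed as often, Hspa1a and Hspa1b, belong to that list. Both tissues were digested, and the tissue and its handling cannot be told apart in these libraries.

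**Figure D5:**
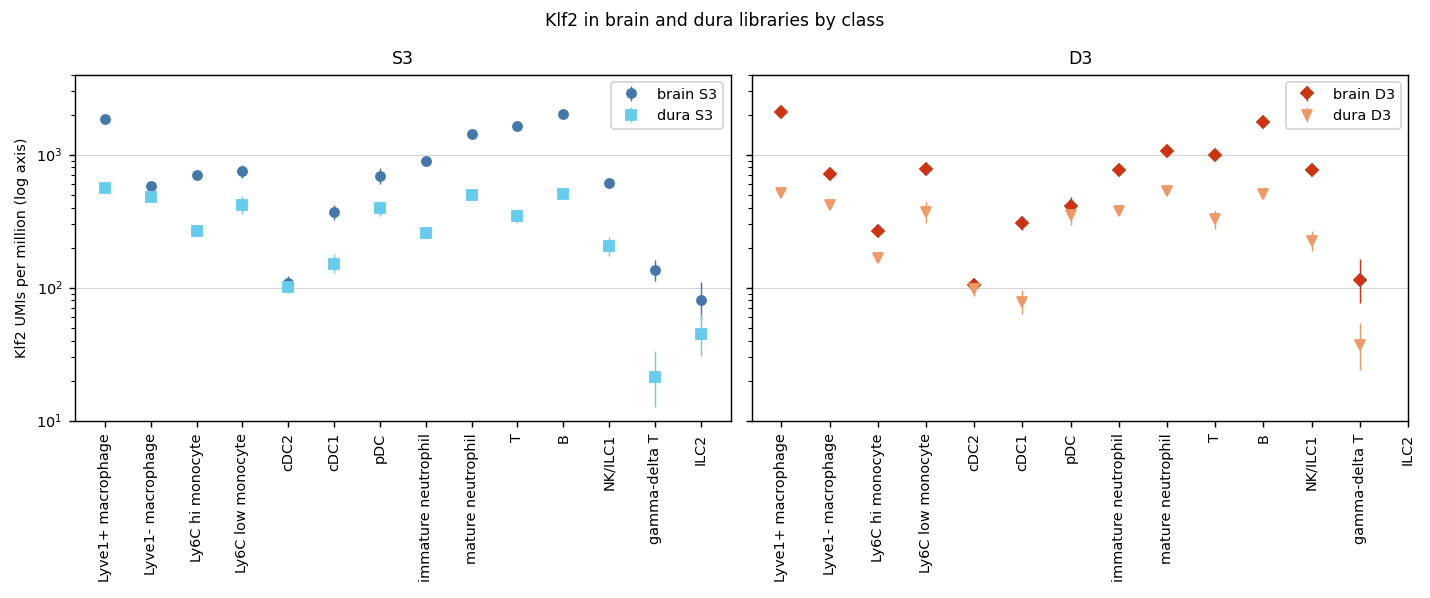
Klf2 in CPM (log axis) in brain and dura mater libraries for each class, sham on the left and injured on the right, with exact Poisson 95% intervals. The brain symbol is above that of the dura mater in all 27 pairs, and cDC2-like cells show the smallest gap with log2 ratios of 0.10 and 0.11.

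Of a further 42 myeloid transcription factors, listed with earlier results of these data known, those with enough UMIs are counted by the same limit. Sall1, the microglial identity factor, stood at 6.67 in microglia-like cells against border macrophages of brain S3, where 5 of 40 were higher and 9 lower, with Pparg (-3.52) and Irf7 (-3.10) at the low end. Tfec (2.46) and Spic (1.84) were highest in Lyve1+ against Lyve1- macrophages of dura mater S3 and Batf3 lowest (-2.03), with 5 higher and 1 lower of 40. In infiltrating-like against border macrophages of brain D3 4 of 41 were higher, Nr1h3 (2.88), a sterol receptor, and Hif1a (1.28), the hypoxia factor, among them, and 13 lower, led by Egr1 (-3.82) and Mef2c (-2.76). In Lyve1+ macrophages of dura mater D3 Cebpe, a granulocyte factor, stood at 5.85 (3.35 to 11.16, from 167 and 1 UMIs) against Lyve1- macrophages, in the class whose cells carried neutrophil markers.

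In cDC1-like against cDC2-like cells of brain S3, Id2 (2.81) and Batf3 (1.55), both factors of type 1 dendritic cells, were the highest and Zeb2 (-2.38) the lowest, with 3 higher and 7 lower of 36. In pDC-like against cDC2-like cells of brain S3, Runx2 (4.63) and Tcf4 (3.97), the pDC factor, were highest, with 7 higher and 11 lower of 36. In mature neutrophil-like cells against Ly6C hi monocyte-like cells of dura mater S3 Egr1 (2.11) was highest, with 3 higher and 17 lower of 37. In microglia-like cells at D3 against S3, where none of the 9 factors passed, Irf7 (2.76) and Nfil3 (1.17) were higher and 0 of 39 were lower. The counts of the 42 factors are a description beside the percentages of all genes given above.

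Across 34 groups of a class in a library with at least 50 cells, the levels of each factor were set beside those of 9625 genes, with Pearson's r as a description, since groups share libraries and depth. The nearest to Maf were Selenop (0.98), Rnase4 (0.96) and Prune2 (0.94). The nearest to Irf8 were Lpar6 (0.92), Emc9 (0.91) and Slc8a1 (0.91), and to Irf4 Cd209a (0.93), Clec4b1 (0.90) and Mgl2 (0.89), of which Cd209a and Mgl2 were among the naming markers. Klf2 had Gtpbp2 (0.90) and Txnip (0.88), and Klf4 Dusp3, Cdc42bpb and Plxnb2 (0.96 each). For Runx3 these were Tpt1 (0.95), Id3 (0.94) and Lsr (0.93), and for Bhlhe40 Traf1 (0.86), Malt1 (0.82) and Jak2 (0.80). For Spi1 they were Gk (0.85), Cdc42ep2 (0.84) and Il17ra (0.83), and for Cebpb Rhog, Myo1f and Tnfrsf1a (0.85 each). Among the 9 factors themselves Irf8 and Klf4 were the closest pair (0.85), and Irf4 and Cebpb the furthest apart (-0.47).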

How the data were processed

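CD45+ cells of 4 libraries were measured by 10x Chromium 3' v3 single-cell RNA sequencing. The submitters' processing notes name Cell Ranger 3.1.0, Seurat 3.1.0 and mm10. The deposited matrices hold natural log values, which the authors made by scaling each cell to 10000 UMIs, adding 1 and taking the logarithm. UMIs were recovered from these values as whole numbers in every cell and summed. The design held no test, since each condition is 1 library, and none was run between conditions.

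A barcode was kept if it had over 1000 and under 6000 genes and no more than 7% of its UMIs were mitochondrial. The automatic threshold of Scrublet (scanpy 1.11.5) marked under 0.07% of barcodes, so the top-scoring 0.8% per 1000 barcodes were removed. Cells were clustered in Seurat 5.3.0 (R 4.3.3) on 2500 variable genes without 30 genes of the factor and dissociation lists, 6 of the 9 factors among them, with 30 components, 20 neighbours and a resolution of 0.6. Of 30 clusters 5 stayed unnamed, 3.0% to 4.8% of cells per library. Classes with under 20 cells in a library were left out. UMIs were summed per class and library, and ratios were given exact intervals with scipy 1.17.1, pandas 2.3.3 and numpy 2.4.6 under Python 3.11.15. Class differences were tested over libraries with limma 3.58.1 (voom, library as a block). The recovery of UMIs, the ratios with their intervals and the limma test were tried on simulated data. The limma test of microglia-like cells against border macrophages was not simulated. The spread between libraries in the simulation was a set value, not taken from these data. Depth limits the precision of the classes with few cells and of Irf4.

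The 9 factors, the lists and the comparisons were chosen with earlier results of these data known. Factors were all named, and of the further factors up to 3 at either end of a comparison. Some genes that this rule and the nearest-pattern rule selected are not reported here. The Klf2 comparison between tissues, the limma test and the repeat without cells carrying neutrophil markers were added after levels had been seen. Alternatives were other filters, doublets kept, other resolutions, 2500 cells per library, thinning to 2000 UMIs, marker gates per cell, means over cells, centring on the median ratio, subtraction of the reference levels and no limit on low counts.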

Additional observations from a re-analysis of the deposited data

Results flagged for a closer look

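Of 75 pairs of a factor and a class measured in both tissues, 5 had D3 to S3 ratios of opposite sign in the brain and the dura mater with both intervals off 0, where 1.53% of all pairs of a gene and one of these 9 classes did. The difference between tissues was not tested, since each ratio rests on 1 library per group. The share over all genes was not matched to the UMIs of these factors, and intervals are narrower for genes with more UMIs. Klf2 stood at 0.18 in the brain and -0.13 in the dura mater in Lyve1+ macrophages, and at 0.32 and -0.21 in Lyve1- macrophages. In immature neutrophil-like cells it was -0.23 in the brain and 0.53 in the dura mater. Bhlhe40 in cDC2-like cells was -0.47 in the brain and 0.13 in the dura mater. Maf in mature neutrophil-like cells was 1.5 in the brain and -0.86 in the dura mater, at levels below those of B cells.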

How the results depend on the processing

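No paired analysis was possible because each condition has 1 library, so that conditions share a single replicate number. Class differences within libraries were tested over libraries instead, and when any 1 library was left out the number of factors limma called stayed within 1.5 times, except from precursor to immature neutrophil-like cells, where it ran from 2 to 5 (4 reported). Of the counts under the alternatives, 128 stayed within 1.5 times the reported count and 24 did not. They are the counts of factors past 2-fold and of class comparisons with Klf2 past 2-fold higher in the brain. A like count can hold other factors. Of 31 log2 ratios past 2-fold, 0 to 6 were lost under an alternative and 0 to 8 others were gained. Bhlhe40 moved from -0.18 in microglia-like cells against border macrophages of brain S3 to 1.08 without the cell filter, -1.65 at resolution 1.2 and -1.23 with 2500 cells, and from -0.47 in Lyve1+ against Lyve1- macrophages of dura mater S3 to between -2.55 and -1.19, past 2-fold, without the cell filter, with doublets kept, at resolution 1.2, with 2500 cells and with reference levels subtracted. For D3 against S3 in mature neutrophil-like cells of the brain (2 reported) the count was 1 with doublets kept, at resolution 0.3 and with reference levels subtracted, and 0 at resolution 1.2, with 2500 cells per library, thinned to 2000 UMIs, by marker gates and as a mean over cells. There Klf4 turned to -0.15 with no filter on detected genes and mitochondrial UMIs and to -1.11 with 2500 cells per library, and Maf to -0.66 by marker gates. For brain Ly6C hi monocyte-like cells (3 reported) it was 1 at resolution 0.3 and thinned, 0 at resolution 1.2 and with 2500 cells, and 5 with reference levels subtracted. For infiltrating-like macrophages against Ly6C hi monocyte-like cells (2) it was 1 with doublets kept, by marker gates and as a mean over cells, and 0 thinned. For microglia-like cells against border macrophages of brain S3 (2) it was 1 with doublets kept and 4 at resolution 1.2 and with 2500 cells. For D3 against S3 it was 1 without the cell filter and 2 with reference levels subtracted in microglia-like cells (0), and 1 by marker gates in Lyve1+ macrophages of the dura mater (0). Centring on the median ratio gave 8 in mature neutrophil-like against Ly6C hi monocyte-like cells (4). The cause was not tested. Resolution 0.3 could not give Lyve1+ against Lyve1- macrophages, nor Ly6C low against Ly6C hi, in dura mater S3, and 2500 cells per library could not give the latter or cDC1-like against cDC2-like cells of brain S3.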
